A study of Mus musculus with 6 samples.

Results

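The genes described here encode glycosyltransferases of glycan and mucin synthesis, the Golgi enzymes that build the sugar chains of glycoproteins and glycolipids. They were chosen by symbol and not by a threshold on their values, although earlier results of these data were known at the time. The rule took protein-coding mouse genes of the Galnt, B3gnt, B3galt, B4galt, B4galnt, Gcnt, Fut, St3gal, St6gal, St6galnac, St8sia and Mgat families, with C1galt1. The rule found 89 of the 49585 gene identifiers counted. Of these 89, 57 passed the filter on low counts and were tested, 16 had no count in any library, and the other 16 were counted at low levels only. The 89 identifiers carry 88 symbols, because St6galnac2 is annotated under a pair of overlapping identifiers.

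RNA was sequenced from tumoroids, which are tumour cell cultures grown as spheres in a gel, made from intestinal adenoma cells of C57BL/6 mice. Every library carried the genotype APC min/+, in which 1 copy of the tumour suppressor Apc is mutated, together with Villin-Cre, a recombinase driven by a promoter of the intestinal epithelium. The 3 knock-out libraries were IKKa FL/FL and the 3 wild-type libraries IKKa +/+. IKKa is the kinase encoded by Chuk that acts in NF-kB signalling, and the comparison asks how loss of this gene changed the transcripts of the tumour cells. Age and sex are not given in the labels, nor is it stated whether the replicates came from separate mice, cultures or clones, so the p-values measure only how far these libraries differ, which can be a technical spread.

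Glycan chains are built in an order. GalNAc transferases of the Galnt family start mucin-type O-glycans on serine and threonine, C1galt1 and the Gcnt enzymes make and branch the core, and the Mgat enzymes set the number of branches on N-glycans. B3gnt and B4galt enzymes then extend the chains with alternating GlcNAc and galactose, and the Fut, St3gal, St6gal, St6galnac and B4galnt enzymes cap them with fucose, sialic acid or GalNAc. In the intestine such chains coat the secreted and membrane-bound mucins, and their caps form blood group and sialylated antigens at the cell surface.

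Libraries held 20749747 to 31875723 counts. Chuk (chromosome 19, 44073335 to 44107480) had 28.9, 24.4 and 34.9 CPM (counts relative to library size, TMM-scaled) in knock-out replicates 1 to 3, and 101, 106 and 95.8 CPM in wild-type replicates 1 to 3, a log2 fold change of -1.77 (SE 0.12, adjusted p = 8.6e-08). The epithelial marker genes Epcam, Cdh1, Krt8, Krt18, Krt19, Vil1, Cldn7 and Lgals4 were counted in all libraries and summed to 10243 to 10962 CPM in the wild type and 11637 to 13764 CPM in the knock-out. Of these 8, 3 were higher (Krt8, Krt18 and Krt19), 4 lower (Epcam, Vil1, Cldn7 and Lgals4) and 1 did not pass, with a median log2 fold change of -0.42. Epcam fell from 915 ± 30.6 to 412 ± 12.9 CPM, and Krt19 rose from 1475 ± 161 to 3970 ± 557 CPM. Markers of single epithelial lineages moved with genotype, in a comparison in which 57.4% of all genes tested passed in either direction. All 7 tested goblet cell markers were lower in the knock-out (summed level 1135 to 1189 CPM in the wild type, 44.8 to 78.2 CPM in the knock-out), as were all 6 Paneth cell markers (576 to 746 against 5.62 to 15.7 CPM), all 4 tested enteroendocrine markers (9.07 to 24.9 against 0 to 0.42 CPM) and 3 of 4 tested enterocyte markers (80.4 to 96.1 against 4.01 to 6.23 CPM). Of 5 tested tuft cell markers 2 were higher and 2 lower, with a median log2 fold change of -0.78. Their sums, which weigh abundant genes most, were 21.2 to 23.7 CPM in the wild type and 288 to 361 CPM in the knock-out. Fibroblast markers summed to at most 0.88 CPM, endothelial ones to 9.93 to 14.5 CPM in the wild type through Tek and at most 0.44 CPM in the knock-out, immune ones to at most 1.64 CPM against 10.9 to 11.8 CPM through Csf1r, and mast cell ones to 3.08 to 7.70 against at most 0.10 CPM through Kit, while Col3a1, Cd3e and Cpa3 were at 0 in all 6 libraries. Xist was at 858 to 1483 CPM in the wild type and at most 0.10 CPM in the knock-out, and the Y-linked Eif2s3y at 0 against 76.6 to 83.4 CPM, so genotype and sex cannot be told apart. No glycosyltransferase gene of the set lies on chromosome X or Y. Mitochondrial transcripts took 6.18% to 7.58% of wild-type and 2.15% to 3.46% of knock-out counts, and genes on chromosome 5, where 5 of the 89 lie, had a median log2 fold change of 0.40 against -0.03 on the other autosomes. The part of lineage composition, sex and chromosome 5 in the differences below was not tested. In bulk RNA, fewer cells of a type and less RNA per cell cannot be told apart.

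The sialyltransferase genes St3gal2 and St6gal1 rose 16.4-fold and 15.7-fold. Genes for the blood group enzymes B4galnt2 and Fut1, for St6galnac2 and for the glycolipid enzyme B3gnt5 fell to or close to no counts. Mgat4c, of the N-glycan class, fell 160-fold, to 0.48 ± 0.08 CPM. Of the 57 tested identifiers, the knock-out had 23 higher and 19 lower at an adjusted p of at most 0.05, and 15 did not pass. With St6galnac2 counted once these are 56 genes, of which 23 were higher and 18 lower. Among all 13759 genes tested, 57.4% passed in either direction, 30.4% higher and 27.0% lower, so a call was common among genes of any kind. A difference of at least 2-fold was found for 14 identifiers that rose and 15 that fell, against a background of 15.2% and 9.83% of all genes. The libraries of the genotypes did not overlap for 46 of the 57, against 63.1% of all genes. With St6galnac2 counted once, 14 genes fell at least 2-fold and 45 of 56 did not overlap. The median log2 fold change was 0.21 for the set and 0.00 for all genes tested. Only genes with enough counts in at least 1 genotype could enter the test, so these counts describe the tested genes and lend no support for a change of the whole set.

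**Figure D1:**
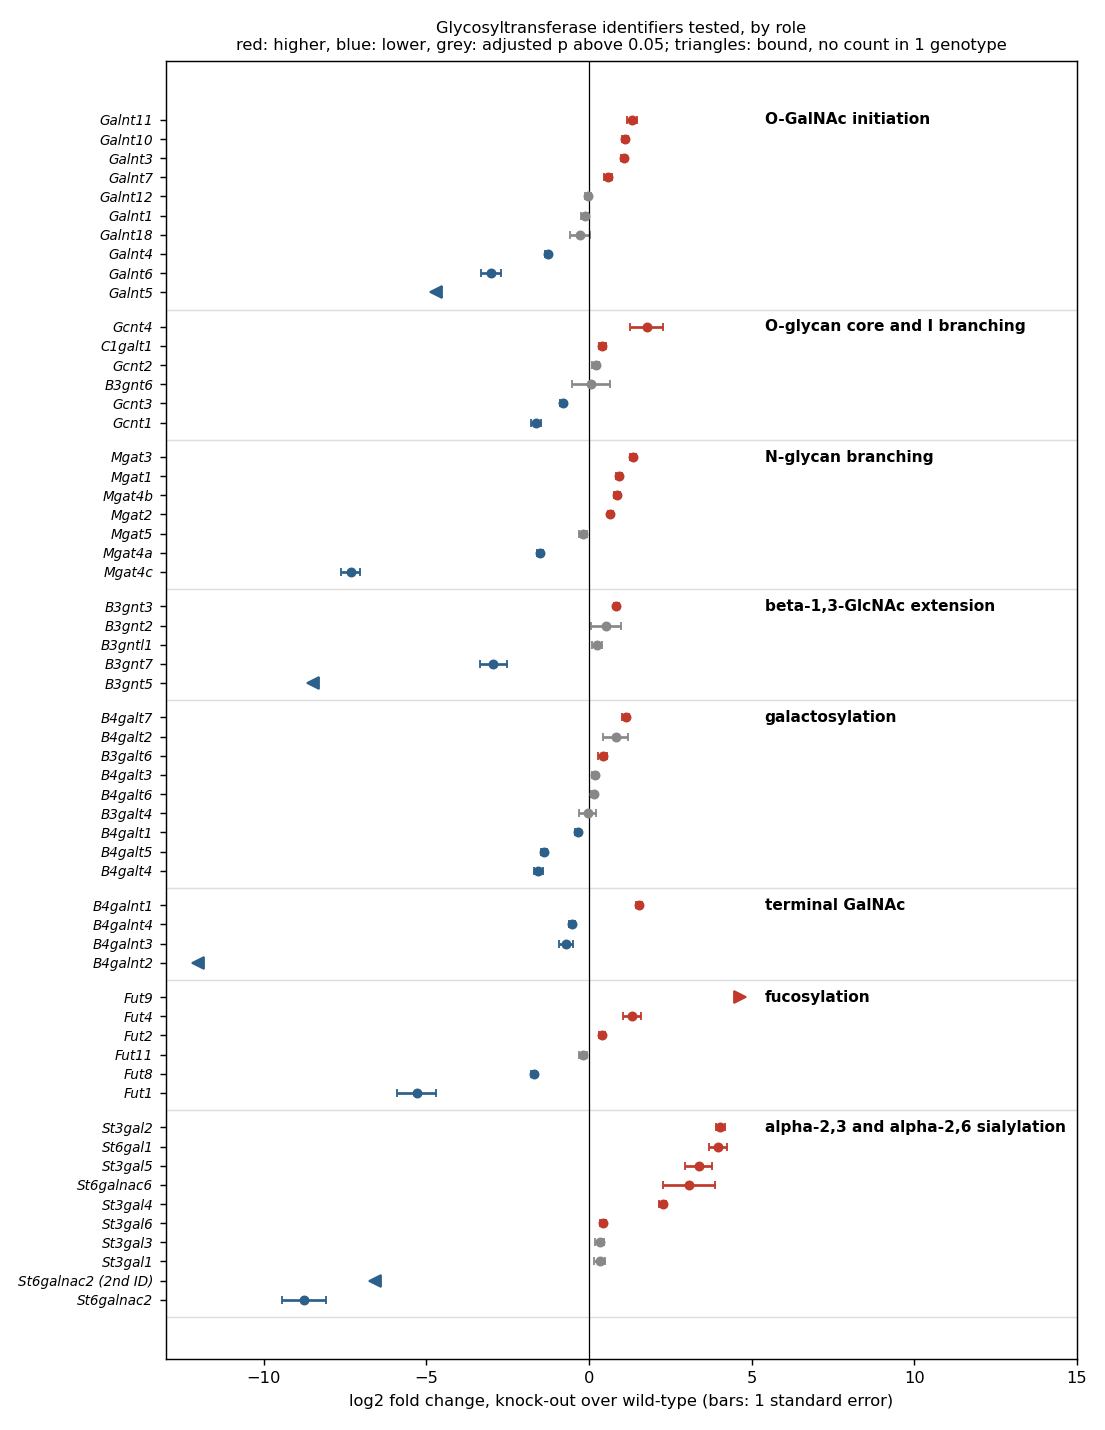
Log2 fold change of the 57 tested glycosyltransferase identifiers, knock-out over wild-type, grouped by enzyme role; bars are 1 standard error, red genes were higher, blue genes lower and grey genes did not pass, and triangles are bounds for genes without a count in 1 genotype. Every role class holds genes on both sides of 0, and St3gal2 at 4.04 is the highest gene counted in both genotypes, with B4galnt2 at the left end.

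Transcripts for the first step of mucin-type O-glycosylation changed in both directions. Of 19 Galnt family genes, 10 were tested, and 4 were higher, 3 lower and 3 did not pass (57.4% of all genes tested passed). Galnt3 has the highest level per kb of annotated exon of the family over all libraries. It had 227, 206 and 208 CPM in the knock-out libraries and 101, 102 and 102 CPM in the wild-type ones (log2 fold change 1.07, SE 0.07, adjusted p = 1.1e-07). Galnt10, which prefers peptides that already carry GalNAc, had 86.4, 86.1 and 81.4 against 36.2, 42.8 and 39.5 CPM (1.10, SE 0.09, adjusted p = 5.5e-07). Galnt11 had 51.0, 40.9 and 56.9 against 21.7, 21.5 and 16.0 CPM (1.33, SE 0.15, adjusted p = 9.7e-06). These 3 genes rose by about the same factor. They were chosen for no overlap between genotypes, which also held for 63.1% of all genes tested. Galnt11 is the only tested gene of the set on chromosome 5. Galnt7 rose less, by 0.58 on the log2 scale, to 108 ± 17.0 CPM (SD, n = 3; adjusted p = 1.4e-03).

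In the other direction, Galnt6 fell from 7.61, 6.98 and 7.17 CPM in the wild type to 0.88, 1.2 and 0.65 CPM in the knock-out (log2 fold change -3.01, SE 0.32, adjusted p = 1.1e-06). Galnt4, another enzyme that acts on peptides already carrying GalNAc, fell from 232, 225 and 227 CPM to 101, 86.8 and 97.7 CPM (-1.26, SE 0.08, adjusted p = 4.3e-08). Galnt5 had no count in the knock-out against 0.57, 1.5 and 0.56 CPM in the wild type, at least 26.1-fold lower (adjusted p = 1.9e-03). The genotypes did not overlap for any of the 3, as was so for 63.1% of all genes tested. Galnt12, at 31.9 ± 0.47 against 32.5 ± 0.90 CPM, Galnt1, at 153 ± 20.0 against 167 ± 10.6 CPM, and Galnt18, at 2.74 ± 0.43 against 3.22 ± 1.26 CPM, did not pass (adjusted p = 0.84, 0.28 and 0.46). Galnt2, a widely expressed initiator in many tissues, was close to silent, with 28 counts over the knock-out libraries and 23 over the wild-type ones. Of the others not tested, Galnt14 had 41 counts against 5, Galntl6 had 3 against 13 and Galnt9 had 0 against 5, and Galnt13, Galnt15, Galnt16, Galnt17 and Galntl5 had none.

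On the scale of CPM per kb of exon, which allows levels to be added across genes, the Galnt family summed to 139 ± 2.99 in the wild type and 153 ± 10.4 in the knock-out, and these values overlapped between libraries. The make-up shifted within that sum. Galnt4 took 32.2 ± 0.50% of the family level in the wild type and 12.2 ± 0.15% in the knock-out, whereas Galnt3 went from 16.7 ± 0.41% to 32.0 ± 1.38%. These shares follow from the levels above and were given no test of their own.

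Transcripts of the main core branching enzymes fell, while that of the core 1 enzyme rose slightly. Of 7 genes in this class 6 were tested, 2 higher, 2 lower and 2 that did not pass (57.4% of all genes tested passed). C1galt1, the enzyme that makes core 1, had 177, 128 and 164 CPM in the knock-out libraries and 127, 116 and 109 CPM in the wild-type ones, a small rise (log2 fold change 0.41, SE 0.11, adjusted p = 8.2e-03) in which the lowest knock-out library was within 1 CPM of the highest wild-type library. Gcnt3, the mucin-type branching enzyme of the intestine and the gene with the highest level per length in this class, fell from 251, 218 and 249 CPM to 145, 136 and 127 CPM (-0.81, SE 0.08, adjusted p = 4.6e-06). Gcnt1, the core 2 branching enzyme, fell from 50.3, 36.1 and 44.0 CPM to 15.8, 12.4 and 14.3 CPM (-1.62, SE 0.14, adjusted p = 1.1e-06). For both branching genes the genotypes did not overlap, as was so for 63.1% of all genes tested. Gcnt4, a further core 2 enzyme, rose from 0.46 ± 0.18 to 1.62 ± 0.47 CPM (1.77, SE 0.50, adjusted p = 5.0e-03), at a low level. Gcnt2, the I-branching enzyme, had 56.0 ± 6.83 against 48.4 ± 4.09 CPM (adjusted p = 0.12). B3gnt6, the core 3 enzyme of the normal colon, was near silent in both genotypes at 0.39 ± 0.08 and 0.35 ± 0.18 CPM (adjusted p = 0.94). Gcnt7 had 2 counts in all.

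Transcripts of the N-glycan enzymes changed in both directions. Of 10 Mgat genes 7 were tested, 4 higher, 2 lower and 1 that did not pass (57.4% of all genes tested passed). The enzymes that open the path to complex N-glycans both rose: Mgat1, which adds the first GlcNAc, from 50.1 ± 5.17 to 95 ± 1.16 CPM (log2 fold change 0.92, adjusted p = 3.1e-06), and Mgat2, which adds the second, from 89.7 ± 7.35 to 141 ± 3.45 CPM (0.65, adjusted p = 2.4e-05). Mgat3, which adds the bisecting GlcNAc that blocks further branching, had 200, 178 and 188 CPM in the knock-out libraries and 78.7, 70.3 and 72.5 CPM in the wild-type ones (1.35, SE 0.08, adjusted p = 3.2e-08). Every knock-out library exceeded every wild-type library for these genes, while 63.1% of all genes tested had no overlap in either direction.

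The Mgat4 branching enzymes went separate ways. Mgat4b, the class member with the highest level per length, had 155, 165 and 166 CPM in the knock-out against 83.2, 86.7 and 97.5 CPM in the wild type (0.86, SE 0.08, adjusted p = 2.3e-06). Mgat4a, which makes the same branch, fell from 256, 277 and 265 CPM to 102, 86.7 and 92.1 CPM (-1.50, SE 0.08, adjusted p = 1.3e-08). So the pair that shares a reaction moved in opposite directions. Mgat4c (chromosome 10, 101681487 to 102391469), a related gene, fell from 78.5, 76.6 and 78.0 CPM to 0.57, 0.41 and 0.45 CPM, 160-fold (-7.32, SE 0.29, adjusted p = 7.4e-12), and the wild-type libraries lay close together. Mgat5, which adds a further branch, had 117, 86.6 and 123 CPM against 124, 128 and 120 CPM and did not pass (adjusted p = 0.19); knock-out replicate 2 was the low library. Mgat5b had 11 counts against 16, and Mgat4d and Mgat4e had none. Summed per length, the Mgat family went from 134 ± 5.58 CPM per kb in wild-type to 192 ± 3.19 in knock-out libraries. Within it Mgat4a went from 15.5 ± 0.90% to 3.78 ± 0.27% of the family level, Mgat4c from 5.45 ± 0.22% to 0.02%, and Mgat3 from 11.9 ± 0.96% to 21.0 ± 0.90%.

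Among the B3gnt enzymes of chain extension the most abundant gene rose and 2 others fell. Of 8 genes 5 were tested, and 2 did not pass (57.4% of all genes tested passed). B3gnt3, which extends core 1 O-glycans, had 295, 275 and 272 CPM in the knock-out libraries and 150, 155 and 164 CPM in the wild-type ones (log2 fold change 0.84, SE 0.07, adjusted p = 9.5e-07), and it alone made up 88.4 ± 0.65% of the B3gnt family level per length in the wild type and 95.9 ± 0.29% in the knock-out. B3gnt5 (chromosome 16, 19760208 to 19772753), which starts the lacto-series glycolipids, had 12.4, 10.4 and 13.2 CPM in the wild type and was not counted in the knock-out, a fall of at least 357-fold against 3 counts over the pooled knock-out libraries (adjusted p = 1.3e-07). B3gnt7, an enzyme of keratan sulfate chains, fell from 5.53, 5.57 and 5.72 CPM to 1.30, 0.37 and 0.45 CPM (-2.94, SE 0.41, adjusted p = 1.5e-05). Its fall was 7.68-fold with all libraries and 13.3-fold without knock-out replicate 1, the highest of the knock-out libraries. B3gnt2, which extends poly-LacNAc chains, was at 0.88 ± 0.24 against 0.59 ± 0.13 CPM, and B3gntl1 at 10.7 ± 0.64 against 8.91 ± 0.30 CPM; neither passed (adjusted p = 0.35 and 0.16). B3gnt4 had 27 counts against 8, B3gnt9 had 27 against 27, and B3gnt8 had none. The class summed to 57.8 ± 2.42 CPM per kb in the wild type and 95.6 ± 3.94 in the knock-out.

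Galactosyltransferase genes also changed in both directions, with a small difference in their sum. Of 12 genes 9 were tested, 2 higher, 3 lower and 4 that did not pass (57.4% of all genes tested passed). Their summed level was 108 ± 0.94 CPM per kb in the wild type and 103 ± 1.60 in the knock-out. The enzymes that build the linker of glycosaminoglycan chains were the genes that rose. B4galt7, which adds the first galactose of that linker, had 36.9, 33.0 and 36.1 CPM in the knock-out libraries and 16.0, 17.2 and 15.6 CPM in the wild-type ones (log2 fold change 1.13, SE 0.11, adjusted p = 2.6e-06). B3galt6, which adds the second, rose from 16.8 ± 0.62 to 22.6 ± 3.47 CPM (0.42, adjusted p = 0.018). Among the LacNAc and glycolipid enzymes, B4galt4 fell from 41.1, 32.0 and 41.2 CPM to 12.4, 14.1 and 12.6 CPM (-1.56, SE 0.13, adjusted p = 7.3e-07). B4galt5, a lactosylceramide synthase, fell from 42.5, 43.7 and 41.8 CPM to 16.0, 17.0 and 16.1 CPM (-1.38, SE 0.10, adjusted p = 1.8e-07). Both were chosen for no overlap between genotypes, a state shared by 63.1% of all genes tested.

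B4galt6, the other lactosylceramide synthase and the gene with the highest level per length of the class, had 258, 231 and 246 CPM in the knock-out libraries and 221, 234 and 208 CPM in the wild-type ones, values that overlapped and did not pass the test (log2 fold change 0.15, SE 0.08, adjusted p = 0.12). B4galt1, the main LacNAc enzyme of many tissues, fell slightly from 101 ± 4.54 to 79.3 ± 1.38 CPM (-0.35, adjusted p = 1.9e-03). B4galt3, at 61.0 ± 2.95 against 54.0 ± 3.12 CPM, B4galt2, at 1.94 ± 0.71 against 1.09 ± 0.14 CPM, and B3galt4, a ganglioside enzyme, at 4.93 ± 0.89 against 5.07 ± 1.71 CPM, did not pass (adjusted p = 0.11, 0.088 and 0.90). B3galt5, which makes type 1 chains, had 15 counts in each genotype, and B3galt1 and B3galt2 had none.

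The terminal GalNAc transferases exchanged their leading gene. B4galnt2 (chromosome 11, 95865943 to 95914891, minus strand), which makes the Sda blood group cap of the intestinal epithelium, had 149, 135 and 130 CPM in the wild type and was not counted in the knock-out (adjusted p = 7.2e-11). With 3 counts over the pooled knock-out libraries as the floor, this was at least 4103-fold lower, the largest fall in the set. B4galnt1, which makes the gangliosides GM2 and GD2, had 159, 188 and 158 CPM in the knock-out libraries and 56.6, 57.7 and 60.8 CPM in the wild-type ones (log2 fold change 1.53, SE 0.09, adjusted p = 2.7e-08). B4galnt2 and B4galnt1 thus moved in opposite directions. The LacdiNAc enzymes B4galnt4 and B4galnt3 fell less, from 58.4 ± 3.09 to 40.8 ± 1.59 CPM (-0.52, adjusted p = 3.2e-04) and from 9.57 ± 1.16 to 5.72 ± 1.66 CPM (-0.71, adjusted p = 0.013). Summed per length, the 4 genes went from 115 ± 4.69 to 60.9 ± 4.71 CPM per kb. B4galnt2, the highest of them per length over all libraries, held 69.8 ± 2.16% of that level in the wild type, and B4galnt1 went from 14.8 ± 1.13% to 80.1 ± 2.04%.

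B4galnt2 and B3gnt5 were the genes above 5 CPM in the wild type that had no knock-out count at all, and St6gal1, described with the sialyltransferases, rose 15.7-fold. Their promoter windows, 250 bases before to 50 bases after the transcription start, are shown from the RefSeq annotation of GRCm38.p6 to set these losses and this gain side by side; they were chosen after the values and matches were seen. B4galnt2 lies at chr11:95914822-95915121 on the minus strand, B3gnt5 at chr16:19759984-19760283 on the plus strand and the first of 3 St6gal1 windows at chr16:23224490-23224789 on the plus strand. The other St6gal1 windows held no NF-kB match. That starting at 23225771 held none of the motifs searched, and that starting at 23290220 held TGANTCA, letters of an AP-1 site. Which start was used was not tested. Capitals mark a match to GGAATG, letters of a TEAD site, read on the opposite strand in B4galnt2 and B3gnt5, and a match to GGGANTT, letters of an NF-kB site, in St6gal1.
B4galnt2: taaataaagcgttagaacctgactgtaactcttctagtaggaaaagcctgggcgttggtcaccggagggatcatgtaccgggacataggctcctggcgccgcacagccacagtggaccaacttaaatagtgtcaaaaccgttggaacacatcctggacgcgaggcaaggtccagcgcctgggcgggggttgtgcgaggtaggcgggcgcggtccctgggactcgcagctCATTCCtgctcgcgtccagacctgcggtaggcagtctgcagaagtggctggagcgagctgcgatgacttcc
B3gnt5: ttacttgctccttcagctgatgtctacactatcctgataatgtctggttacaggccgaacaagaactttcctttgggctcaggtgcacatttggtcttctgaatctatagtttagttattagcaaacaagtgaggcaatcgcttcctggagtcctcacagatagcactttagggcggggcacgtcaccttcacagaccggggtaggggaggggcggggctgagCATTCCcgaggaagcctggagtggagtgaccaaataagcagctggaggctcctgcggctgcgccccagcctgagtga
St6gal1: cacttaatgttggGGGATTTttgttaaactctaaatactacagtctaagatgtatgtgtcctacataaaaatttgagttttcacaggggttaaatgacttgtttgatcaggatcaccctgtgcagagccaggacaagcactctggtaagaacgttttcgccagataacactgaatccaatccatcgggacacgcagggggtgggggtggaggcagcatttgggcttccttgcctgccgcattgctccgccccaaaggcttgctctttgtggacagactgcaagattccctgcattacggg

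Such matches were common. The table held windows for 66 of the 88 symbols, 92 in all, and short motifs were searched on both strands in these and in all 32817 windows of the same length. GGAATG was in 17.4% of the glycosyltransferase windows and 14.7% of all windows, and GGGANTT in 16.3% and 16.6%. TGANTCA of AP-1 was in 6.52% against 7.81%, AAAGTCC of HNF4 in 5.43% against 4.21%, TTTATNG of CDX in 4.35% against 10.9% and ATCAAAG of TCF/LEF in 1.09% against 3.73%. By direction, GGGANTT was in 5 of 24 windows of genes that rose and 2 of 25 windows of genes that fell, and GGAATG in 4 of 24 and 4 of 25. The other motifs were in at most 3 windows of either direction. Glycosyltransferase windows were richer in G and C, with a median of 60.0% against 52.67%, and had a median of 18 CpG against 7. A match describes letters in a window and not a bound site.

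Transcripts of the core fucose enzyme and of a blood group H enzyme fell. Of 8 Fut genes 6 were tested, 3 higher, 2 lower and 1 that did not pass (57.4% of all genes tested passed). Fut8, the only core fucosyltransferase and the gene with the highest level per length of the class, fell from 139, 141 and 146 CPM in the wild type to 45.8, 40.5 and 44.5 CPM in the knock-out (log2 fold change -1.70, SE 0.08, adjusted p = 4.2e-09). Fut1, which makes the H antigen, fell from 8.07, 7.66 and 8.44 CPM to 0.19, 0.07 and 0.32 CPM, 39.2-fold (-5.29, SE 0.60, adjusted p = 4.9e-08). Fut2, the H enzyme of secretory epithelia, rose from 47.4 ± 2.12 to 62.8 ± 1.39 CPM (0.41, SE 0.08, adjusted p = 1.2e-03). Fut1 and Fut2, a pair with the same reaction, therefore moved in opposite directions, and they lie near each other on chromosome 7 (45617289 to 45621059 and 45648591 to 45666394), 27.5 kb apart. Izumo1, which lies 0.75 kb from Fut1, went from 1.35 CPM in the wild type to no count in the knock-out.

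Of the enzymes for Lewis-type fucose, Fut4 had 8.28, 4.68 and 8.49 CPM in the knock-out libraries and 2.88, 3.20 and 2.64 CPM in the wild-type ones (1.32, SE 0.28, adjusted p = 1.1e-03), and knock-out replicate 2 lay nearest to the wild type. Fut9 had 0.92, 0.41 and 1.58 CPM in the knock-out and no count in the wild type, at least 25.0-fold higher (adjusted p = 2.1e-03). These rises were at low levels. Fut11 did not pass, at 17.2 ± 1.55 against 19.4 ± 0.69 CPM (adjusted p = 0.26). Fut10 had 27 counts against 16, and Fut7 had none. The Fut family summed to 34.9 ± 0.44 CPM per kb in the wild type and 23.1 ± 1.03 in the knock-out. Fut8 went from 51.5 ± 0.98% to 23.9 ± 0.63% of that level and Fut2 from 25.0 ± 0.92% to 50.2 ± 3.05%.

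Sialyltransferases that cap galactose showed the largest rises among the genes counted in both genotypes. Of 15 identifiers in this class 10 were tested, 6 higher, 2 lower and 2 that did not pass (57.4% of all genes tested passed). St3gal2 (chromosome 8, 110919922 to 110972480), which sialylates core 1 O-glycans and gangliosides, had 105, 88.8 and 99.8 CPM in the knock-out libraries and 5.76, 7.27 and 5.05 CPM in the wild-type ones, 16.4-fold higher (log2 fold change 4.04, SE 0.14, adjusted p = 1.7e-10). St6gal1 (chromosome 16, 23224740 to 23360350), which caps the LacNAc of N-glycans, had 42.9, 32.2 and 45.9 CPM against 1.61, 3.78 and 2.68 CPM, 15.7-fold higher (3.97, SE 0.28, adjusted p = 2.5e-08). St3gal4, which acts on LacNAc and has the highest level per length of the class, had 95.8, 85.4 and 93.6 CPM against 21.3, 16.1 and 19.2 CPM (2.27, SE 0.11, adjusted p = 4.9e-09). In all 3 the lowest knock-out library was several times the highest wild-type library.

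St3gal5, which makes the ganglioside GM3, had 8.94, 7.94 and 6.14 CPM in the knock-out libraries and 0.80, 1.07 and 0.41 CPM in the wild-type ones (3.37, SE 0.42, adjusted p = 2.7e-06). St6galnac6, a ganglioside enzyme, rose from 0.16 ± 0.17 to 1.54 ± 0.33 CPM (3.07, SE 0.79, adjusted p = 6.8e-04). St3gal6 rose less, from 59.3 ± 3.58 to 79.8 ± 4.14 CPM (0.43, adjusted p = 1.0e-03). St3gal5 and B4galnt1, which act in turn after lactosylceramide to make GM3 and GM2, were thus both higher in the knock-out. Other steps did not share this rise. The lactosylceramide synthase B4galt5 and the glucosylceramide synthase Ugcg were lower, and B4galt6 and the ganglioside enzyme B3galt4 did not pass. St3gal3, at 26.1 ± 3.19 against 20.8 ± 2.63 CPM, and St3gal1, another core 1 enzyme, at 18.4 ± 3.07 against 14.9 ± 2.82 CPM, did not pass (adjusted p = 0.052 and 0.11).

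The fall in this class was in the St6galnac branch. St6galnac2 (chromosome 11, 116675303 to 116694868, minus strand), which adds sialic acid to the GalNAc of O-glycans, had 48.7, 51.8 and 50.5 CPM in the wild type and 0.03, 0.11 and 0.19 CPM in the knock-out (-8.76, SE 0.66, adjusted p = 2.3e-12). The fitted fall was 432-fold, and 687-fold without knock-out replicate 3, with 10 counts in the knock-out libraries together. A second identifier of the same symbol lies inside it (116677483 to 116681290) and had 3.65, 2.47 and 3.38 CPM against no count, at least 94.3-fold lower (adjusted p = 1.3e-05). How reads of the overlap were divided is uncertain, so the 2 lower identifiers of this class stand for 1 gene. A transcript on the opposite strand, 1810032O08Rik, was at 26.8 CPM in the wild type and 17.6 CPM in the knock-out. St6galnac1, the sialyl Tn enzyme that lies 70.2 kb from it, had no count in any library, nor had St6gal2 and St6galnac5. St6galnac4 had 19 counts in the knock-out against 2, and St6galnac3 had 9 against 0.

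Enzymes that add sialic acid to sialic acid were close to silent: none of the 6 St8sia genes passed the filter. St8sia5, the highest of them per length, had 41 counts in the wild-type libraries together and none in the knock-out. St8sia1 had 6 knock-out and 11 wild-type counts, St8sia4 had 3 and 11, St8sia6 had 4 and 0, and St8sia2 and St8sia3 had none.

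**Figure D2:**
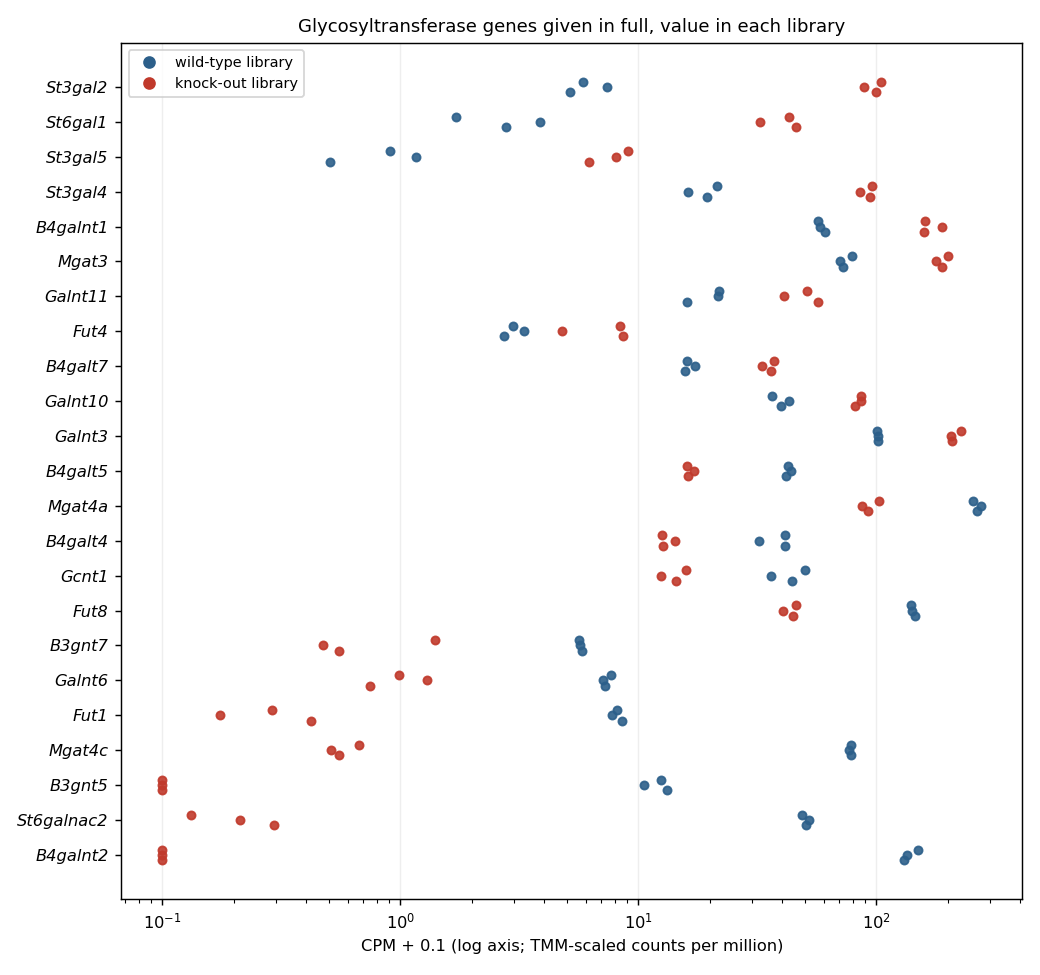
CPM plus 0.1 on a log axis in each of the 6 libraries for the 23 genes that passed the test, differed at least 2-fold and averaged at least 5 CPM in the higher genotype (at most 12 per direction, which leaves out Galnt4), knock-out in red and wild-type in blue, ordered by fold change. No overlap between genotypes was also a condition for a gene to be shown, so it is not a result of the figure. Fut4 has the narrowest gap, between 3.20 and 4.68 CPM. The points at the left edge of B3gnt5 and B4galnt2 are libraries without a count.

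Summed per length, the sialyltransferases that cap galactose and GalNAc went from 38.4 ± 0.16 to 87.3 ± 5.43 CPM per kb, the largest ratio among the classes plotted. The St3gal family alone went from 27.2 ± 0.28 to 78.7 ± 4.05, while the St6galnac family went from 10.6 ± 0.18 to 0.39 ± 0.09. St3gal2 went from 4.40 ± 0.85% to 24.6 ± 0.81% and St3gal4 from 23.7 ± 3.07% to 39.8 ± 0.36% of the St3gal level, as St3gal6 went from 35.3 ± 1.76% to 16.48 ± 1.51% although its own CPM rose. The core and branching class went from 89.5 ± 5.64 to 68.2 ± 6.52 CPM per kb. Such sums weigh abundant genes most and carry no test.

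**Figure D3:**
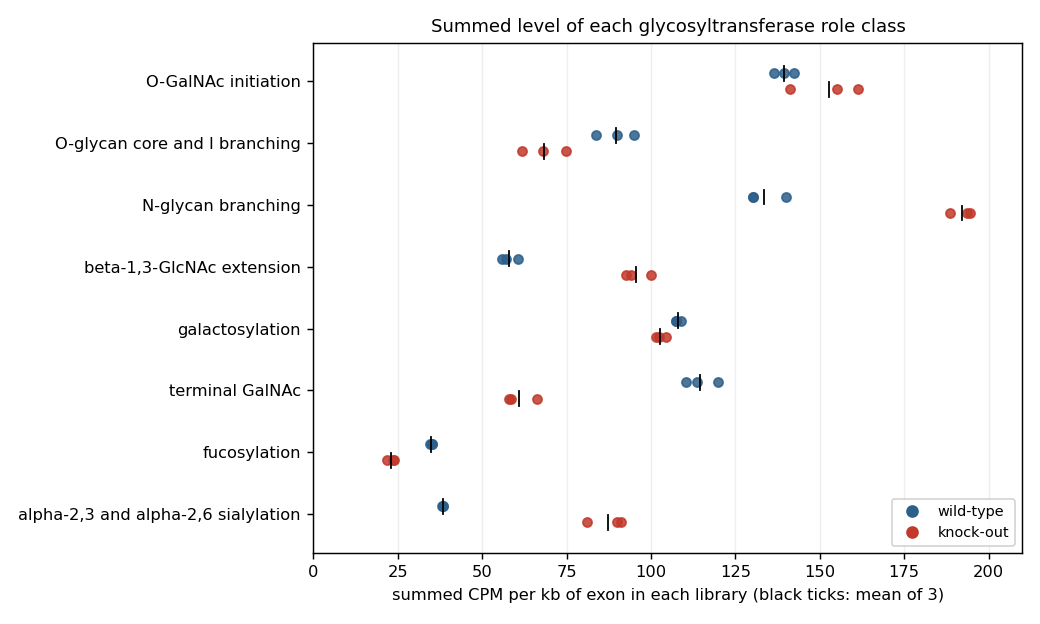
Summed CPM per kb of exon of each enzyme role class in each library, wild-type in blue and knock-out in red, with a black tick at the mean of 3 libraries. The sialylation class lies near 38 in the wild type and between 81.1 and 91.0 in the knock-out, the terminal GalNAc class lies at 57.8 to 66.3 in the knock-out, and the O-GalNAc initiation class overlaps between genotypes.

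**Figure D4:**
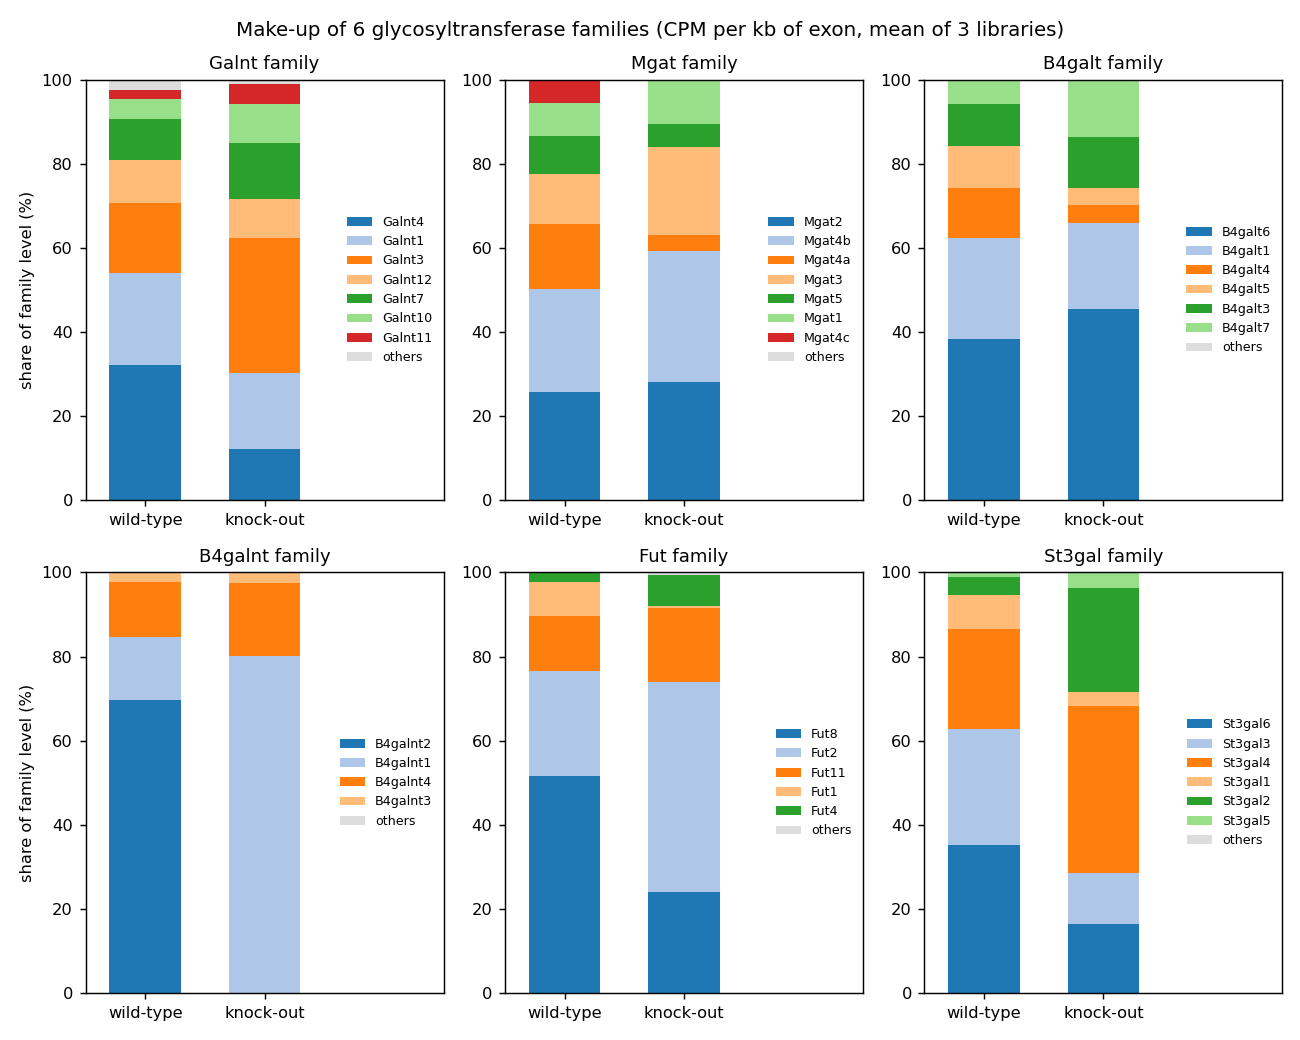
Share of each gene in the summed CPM per kb of its family, in percent, mean of 3 libraries per genotype, for 6 families. B4galnt2 with 69.8% of its family gives way to B4galnt1 with 80.1%, and Fut8, Galnt4 and St3gal6 lose the first rank to Fut2, Galnt3 and St3gal4.

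The nearest tested protein-coding gene on each side was read for the 23 genes plotted by library. Of these 46 neighbours, 20 passed in the direction of the glycosyltransferase gene, 10 in the opposite one and 16 did not pass. Among all genes tested, 57.4% passed, 30.4% higher and 27.0% lower, and whether neighbours differ from that share was not tested. Both neighbours passed in the gene's own direction for 4 of the 23. These were B3gnt5 (Hira -0.30 and Klhl24 -0.86 on the log2 scale), Fut8 (Max -0.34 and Gphn -0.53), Fut1 (Bcat2 -0.96, and Izumo1 without a knock-out count) and B4galnt1 (Os9 0.23 and Arhgef25 3.38). Some of these neighbours were distant: Hira and Klhl24 lay 790 and 325 kb from B3gnt5, and Max and Gphn 276 and 750 kb from Fut8. Both passed in the opposite direction for St3gal5 (Polr1a -0.20 and Atoh8 -3.70). Gngt2, 20.2 kb from B4galnt2, fell from 17.0 to 6.01 CPM, while Igf2bp1 on its other side rose from 0.36 to 3.33 CPM. Rhbdf2, 48.3 kb from St6galnac2, rose from 57.4 to 92.0 CPM (adjusted p = 1.9e-05). Fuk, the fucose kinase gene 17.4 kb from St3gal2, rose from 19.6 to 32.5 CPM, and Ddx19a on the other side did not pass (adjusted p = 0.095). Kirrel3 beside St3gal4 rose from no count to 4.56 CPM, whereas Dcps on the other side fell from 34.9 to 27.4 CPM. Tab1 and Mief1 on either side of Mgat3 did not pass (adjusted p = 0.45 and 0.48).

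The enzymes above use activated sugars as donors. The counts for these lists stand beside 57.4% of all genes tested that passed in either direction. Of 25 tested genes of nucleotide sugar synthesis, 6 were higher and 11 lower, with a median log2 fold change of -0.23. Galm, which interconverts the forms of galactose, fell from 49.9 ± 7.58 to 4.77 ± 0.44 CPM (adjusted p = 2.9e-09), while Ugdh, which makes UDP-glucuronic acid and lies on chromosome 5, rose from 183 ± 8.58 to 463 ± 10.9 CPM (adjusted p = 1.0e-08), and Pmm1, a phosphomannomutase, rose from 46.5 ± 6.09 to 182 ± 21.4 CPM (adjusted p = 2.2e-08). Of 13 nucleotide sugar transporters 6 were higher and 4 lower (median 0.16). Slc35a3, the UDP-GlcNAc transporter, fell from 190 ± 7.31 to 88.9 ± 14.0 CPM, and Slc35a5 and Slc35d2 rose 2.46-fold and 2.31-fold.

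Before branching, N-glycans are assembled on a lipid, transferred and trimmed. Of 34 genes of precursor transfer and trimming, all tested, 6 were higher, 10 lower and 18 did not pass (median -0.06). Over all genes tested, 57.4% passed in either direction. The genes with the smallest adjusted p all rose: Man1c1, a Golgi mannosidase, rose from 0.27 ± 0.20 to 18.7 ± 2.11 CPM (74.9-fold, and 115-fold without wild-type replicate 2; adjusted p = 4.1e-09), Tusc3, an oligosaccharyltransferase subunit, from 47.4 ± 4.24 to 144 ± 1.46 CPM (adjusted p = 1.1e-08) and Man2a2, a further Golgi mannosidase, from 42.3 ± 3.94 to 103 ± 14.8 CPM (adjusted p = 1.3e-06). Among 23 tested glycosyltransferases and chaperones of other kinds, 12 were higher and 7 lower (median 0.26). Ggta1, which makes the alpha-gal cap, rose from 11.6 ± 0.03 to 104 ± 7.34 CPM (adjusted p = 1.2e-10), Ugcg, the glucosylceramide synthase that opens glycolipid synthesis, fell from 145 ± 13.9 to 81.8 ± 6.35 CPM (adjusted p = 9.5e-06), and Lfng, a Notch-modifying enzyme on chromosome 5, fell from 33.8 ± 1.30 to 18.0 ± 1.51 CPM (adjusted p = 1.8e-05). Of 4 tested sulfotransferases 3 were higher and none lower (median 1.63): Chst8 rose from 0.19 ± 0.13 to 9.81 ± 3.30 CPM (48.9-fold, and 78.7-fold without wild-type replicate 3; adjusted p = 4.2e-07), Chst7 from 1.29 ± 0.32 to 7.43 ± 0.71 CPM (adjusted p = 4.0e-06) and Chst4 from 1.89 ± 0.37 to 3.24 ± 0.67 CPM (adjusted p = 0.036).

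Mucin genes, whose proteins are main carriers of O-glycans, changed in both directions. Of 9 tested mucin genes 3 were higher and 4 lower (median 0.42), where 57.4% of all genes tested passed in either direction. Muc13, a membrane mucin, fell from 301 ± 11 CPM to no count and Muc3a from 6.67 ± 0.61 CPM to no count, at least 199-fold lower (adjusted p = 1.0e-11 and 7.4e-07), whereas Mucl3, a mucin-like gene, rose from 0.07 ± 0.06 to 158 ± 2.77 CPM (adjusted p = 5.9e-15). Summed over the list, mucin transcripts were at 327 to 335 CPM in the wild type and 183 to 194 CPM in the knock-out. Muc3a and Muc3, both lower, lie on chromosome 5, so that 2 mucin genes were called lower when chromosomes X, Y and 5 and mitochondrial genes were left out.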

How the data were processed

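Stranded, polyA-selected RNA libraries of 3 knock-out and 3 wild-type tumoroid cultures were sequenced, per the labels' protocols. The values the submitters deposited are raw counts, whole numbers for each Ensembl gene, and the reads were aligned with STAR to GRCm38, per the submitters' processing notes; the counting program, its strand setting and its treatment of multi-mapped reads were not given in the sources used here. Symbols and exon lengths came from the GENCODE annotation of GRCm38, which left 259 identifiers unnamed. A length joins all annotated exons of a gene and can exceed that of the transcript in use, so shares and ranks per length depend on it. The glycosyltransferase genes and all gene lists were chosen with earlier results of these data known.

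Genes were filtered with filterByExpr (at least 10 counts, total at least 15), scaled by TMM and tested with the quasi-likelihood F-test (edgeR 4.0.16, R 4.3.3), with genotype as the only term. Benjamini-Hochberg adjustment covered the 13759 genes tested, and a gene was called at an adjusted p of at most 0.05. Fold changes are knock-out over wild-type, and standard errors come from the fitted model. Where a genotype had no count, the fold was bounded against 3 counts over its pooled libraries, which is 0.0336 CPM for knock-out and 0.0388 CPM for wild-type libraries and covers counting error only. Genes given per library passed the test without overlap between genotypes, differed at least 2-fold and had at least 5 CPM in the higher genotype, at most 12 per direction by fold change. Also given were the gene of each role class with the highest level per length and the 3 genes of each list with the smallest adjusted p. Per-library values of Galnt4, Galnt5, C1galt1, Mgat5, Fut9 and the second St6galnac2 identifier were added after their values were seen. The libraries were not treated as paired, because the labels do not say whether a shared replicate number has a meaning. The deviations of same-numbered libraries correlated at 0.11, -0.11 and -0.19. With 3 libraries per genotype, such values cannot settle whether the libraries were paired. Replicates of a genotype differed by more than sampling noise, with knock-out replicate 2 farthest from its group (chi-square per degree of freedom 39.7 and 40.2 to the others, against 5.86 between those). Alternatives were other scaling, no low-count filter, the Wald test of DESeq2 1.42.0, a replicate block, fewer chromosomes and leaving out each library. The test was tried on simulated counts beforehand.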

Additional observations from a re-analysis of the deposited data

How the results depend on the processing

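Of the 28 glycosyltransferase genes named by rule, St8sia5 was not tested in the main fit. All 323 values of the tested ones kept their direction and their side of the threshold under the alternatives run. The count of glycosyltransferase identifiers called higher was 23 to 24 under other scaling, filter, test, block or chromosomes and 22 to 25 when 1 library was left out, and the count called lower was 19 to 20 in both. Over all genes, 3618 to 4408 were called higher and 3401 to 4119 lower, and 3788 to 4477 and 3289 to 4422 with 1 library left out. The log2 fold change of Chuk lay between -1.91 and -1.69. With the replicate block, 24 glycosyltransferase identifiers were called higher and 19 lower, all genes called higher in the knock-out numbered 3959 and all genes called lower in the knock-out 3473. The labels give only a shared number, and not every library correlated best with its own number, which cannot settle whether libraries were paired. Mucin genes called lower numbered 2 without chromosomes X, Y and 5 and mitochondrial genes, because Muc3 and Muc3a lie on chromosome 5. The count of sialidase, fucosidase and lysosomal glycosidase genes called higher was 5 to 8 with 1 library left out, and 5 both without wild-type replicate 1 and without wild-type replicate 2; the cause was not tested. Falls to few counts, such as St6galnac2 with 10 counts in the knock-out, are limited by depth, so their fold is less certain than their direction.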

Other observations

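Genes that read or remove glycans were read in the same comparison, in which 57.4% of all genes tested passed in either direction. Of 7 tested galectins, which bind galactose-containing glycans, 4 were higher and 3 lower, with a median log2 fold change of 0.30. Lgals3 rose from 90.7 ± 8.35 CPM in the wild type to 588 ± 80.4 CPM in the knock-out (adjusted p = 9.2e-10). Lgals2 fell from 330 ± 35.7 to 50.4 ± 13.6 CPM (adjusted p = 3.6e-08) and Lgals4 from 2344 ± 95.3 to 1397 ± 170 CPM (adjusted p = 2.2e-05). The galectins summed to 2893 to 3133 CPM in the wild type and 2113 to 2600 CPM in the knock-out.

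Of 15 tested sialidases, fucosidases and lysosomal glycosidases, 8 were higher, 3 lower and 4 did not pass (median 0.24), and 5 were higher without wild-type replicate 1 and also without wild-type replicate 2. Aga, which cleaves the asparagine linkage of N-glycans, rose from 31.2 ± 1.17 to 81.6 ± 6.00 CPM (adjusted p = 7.9e-08). Neu1, the lysosomal sialidase, fell from 161 ± 8.11 to 89.2 ± 2.25 CPM (adjusted p = 1.1e-06). Fuca2, a fucosidase, rose from 66.3 ± 5.60 to 97.0 ± 6.30 CPM (adjusted p = 2.4e-04).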
